A study of Mus musculus with 6 samples.

Results

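The Bex family (brain expressed, X-linked) was examined in mouse olfactory epithelium, the lining of the nose in which odour-detecting neurons sit. Its members here were Bex1, Bex2, Bex3 and Bex4, taken by name from the platform annotation. All 4 were found, as 4 of the 18194 genes named on the array, each through 1 probe set. RNA came from samples labelled homozygous for OMP-GFP (3 arrays) and from samples labelled heterozygous for OMP-GFP (3 arrays), each hybridised to 1 Affymetrix mouse expression array. In this line, as background, green fluorescent protein is encoded at the Omp locus in place of the native protein. Homozygous mice therefore lack olfactory marker protein, whereas heterozygous mice keep 1 intact allele, and every sample carries GFP. There was no wild-type group, so the loss of the protein and the additional GFP copy cannot be told apart. Strain, age, sex and the number of animals behind each RNA are not given in the labels, so the tests measure only the spread between these samples.

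Bex proteins are small, largely disordered adaptor proteins abundant in neurons. Bex1 was identified in mouse as a binding partner of olfactory marker protein, the cytosolic protein that marks mature olfactory sensory neurons, and it also binds calmodulin. Bex1 and Bex3 bind the neurotrophin receptor p75, and Bex3, also called Nade or Ngfrap1, was named for its part in cell death downstream of that receptor. BEX2 in human takes part in complexes with the transcriptional regulator LMO2, and Bex4 is the least studied of these genes. The comparison asked how transcripts of partners of olfactory marker protein stood when that protein was missing.

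The 4 genes lie together on the X chromosome in the order Bex2, Nxf3, Bex4, Tceal8, Tceal5, Bex1, LOC115489115, Tceal7, Tceal9 and Bex3 among protein-coding genes of the RefSeq annotation of GRCm38.p6. Their promoters fell into pairs, and the 250 bases before each annotated start are shown because this pairing is set beside the signals further on. The sequences are from RefSeq (build GRCm38.p6) and were matched by symbol for 4 of the 4 genes. Bex1 lies on the minus strand (chrX:136215514-136215763), as does Bex2 (chrX:136068237-136068486). Bex3 (chrX:136270003-136270252) and Bex4 (chrX:136138746-136138995) lie on the plus strand. Each is written 5′ to 3′ on the strand of its gene, and capitals mark the longest run of identical bases shared with its partner.
Bex1: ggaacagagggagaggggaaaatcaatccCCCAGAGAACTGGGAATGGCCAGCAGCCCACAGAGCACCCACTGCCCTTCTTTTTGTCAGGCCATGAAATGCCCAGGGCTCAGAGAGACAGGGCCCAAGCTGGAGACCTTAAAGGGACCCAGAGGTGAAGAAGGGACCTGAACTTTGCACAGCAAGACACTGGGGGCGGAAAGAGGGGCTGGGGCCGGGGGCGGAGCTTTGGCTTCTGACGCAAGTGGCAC
Bex4: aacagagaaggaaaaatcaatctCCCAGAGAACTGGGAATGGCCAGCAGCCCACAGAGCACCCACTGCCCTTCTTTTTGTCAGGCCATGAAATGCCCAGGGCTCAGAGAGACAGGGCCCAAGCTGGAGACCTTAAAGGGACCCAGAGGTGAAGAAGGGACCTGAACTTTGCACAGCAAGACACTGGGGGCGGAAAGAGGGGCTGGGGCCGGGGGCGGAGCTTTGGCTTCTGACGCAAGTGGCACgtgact
Bex2: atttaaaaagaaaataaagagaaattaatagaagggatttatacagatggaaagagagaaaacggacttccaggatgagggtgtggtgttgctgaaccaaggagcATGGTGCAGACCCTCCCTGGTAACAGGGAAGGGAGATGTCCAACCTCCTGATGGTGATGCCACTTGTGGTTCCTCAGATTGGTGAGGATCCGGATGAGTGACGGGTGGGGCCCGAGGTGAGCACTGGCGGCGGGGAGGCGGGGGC
Bex3: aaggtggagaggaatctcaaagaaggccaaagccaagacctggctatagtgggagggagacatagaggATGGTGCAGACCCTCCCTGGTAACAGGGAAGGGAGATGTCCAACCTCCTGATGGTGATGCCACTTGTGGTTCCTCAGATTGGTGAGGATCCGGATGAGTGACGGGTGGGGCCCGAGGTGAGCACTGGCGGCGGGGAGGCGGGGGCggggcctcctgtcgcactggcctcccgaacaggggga

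Bex1 and Bex4 shared an uninterrupted run of 221 bases, which began 221 bases before the start of Bex1 and 227 bases before that of Bex4. Bex2 and Bex3 shared a different run of 145 bases, which began 145 and 182 bases before their starts. The runs reached the last base of the Bex1 and Bex2 windows, so their lengths are minimums set by where the windows stop. Each run was found upstream of 2 genes in the promoter table, the pair itself. Across the pairs the longest shared run was 8 or 9 bases. The letters TGACGCA, searched on both strands, occurred 1 time in each of the Bex1 and Bex4 windows and 0 times in those of Bex2 and Bex3. These letters are present in 1.7% of the 32851 windows of the same length. They lie within the run that Bex1 and Bex4 share, so the matches in these 2 windows are not separate occurrences. The GC-box letters GGGCGG, present in 32.7% of windows, occurred 2 times upstream of Bex1 and of Bex4, 1 time upstream of Bex3 and 0 times upstream of Bex2. The E-box letters CACGTG, present in 6.0% of windows, occurred 1 time upstream of Bex4 and 0 times upstream of the others. The homeodomain core TAATTA, present in 4.8% of windows, occurred 0 times upstream of the 4 genes. The CACGTG of Bex4 and the GGGCGG of Bex3 cross the end of the shared run, where the Bex1 and Bex2 windows stop. Their absence from the partner's window therefore depends on that cut. The GGGCGG matches of Bex1 and Bex4 lie within their shared run. These matches describe letters only.

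No member of the Bex family passed the test between homozygous and heterozygous samples. Of the 4 probe sets, 0 passed a limma adjusted p of 0.05, against 0% of the 22514 probe sets tested. Bex1 and Bex4 were lower in homozygous samples with no overlap between the groups, while Bex2 and Bex3 overlapped. Groups failed to overlap in the lower direction for 5.01% of all probe sets tested. At an unadjusted p under 0.05 there was 1 member, Bex1, against 5.73% of all probe sets tested. All 4 probe sets passed the filter on low values, and their signals are given in MAS5 units on a linear scale, scaled by the authors.

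Bex1, the partner of olfactory marker protein and of calmodulin, is read by probe set 1448595_a_at. Its signal was 3955.8, 3608.3 and 3891.2 in homozygous 1, 2 and 3. Heterozygous 2 and 3 had 4051.7 and 4407, and the library labelled heterozygous 1 had 4564. The highest homozygous sample lay just under the lowest heterozygous one, and homozygous 2 was the lowest of all. The means were 3818 ± 184.8 in homozygous and 4341 ± 262.5 in heterozygous samples (SD, n = 3 each), 12% lower in homozygous samples. The log2 difference, homozygous minus heterozygous, was -0.18 ± 0.07 (SE), with an unadjusted p of 0.0266 and an adjusted p of 0.859 in limma. Its 95% interval, not adjusted for the number of probe sets, ran from 0.790-fold to 0.982-fold. For comparison, 17.6% of the probe sets tested had a larger absolute difference. Leaving out the library labelled heterozygous 1 and heterozygous 3 together left a difference of -0.086, with heterozygous 2 as the lone heterozygous sample.

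Bex4 (1428209_at), whose promoter is paired with that of Bex1, read 621.2, 726.6 and 718.2 in homozygous 1, 2 and 3. Heterozygous 2 and 3 had 742.8 and 759.4, and the library labelled heterozygous 1 had 741.6. Homozygous 1 stood below all other samples, while homozygous 2 and 3 lay close under the tightly grouped heterozygous samples. The means were 688.7 ± 58.58 in homozygous and 747.9 ± 9.949 in heterozygous samples (SD, n = 3 each). The log2 difference was -0.12 ± 0.09 (SE), for which limma gave an adjusted p of 0.911, and a 95% interval from 0.801-fold to 1.063-fold. Without homozygous 1 the difference was -0.048.

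Bex2 (1417388_at), linked in human to LMO2, read 3512.7, 3575.2 and 3277.9 in homozygous 1, 2 and 3. Heterozygous 2 and 3 had 3372.5 and 3522.2, and the library labelled heterozygous 1 had 3578.5. The samples of both groups were interleaved. The means were 3455 ± 156.8 in homozygous and 3491 ± 106.5 in heterozygous samples (SD, n = 3 each). They differed by -0.02 ± 0.07 (SE) in log2 units, for which limma gave an adjusted p of 0.991. The 95% interval ran from 0.893-fold to 1.096-fold. Over all 6 samples Bex2 had an SD of 0.051 on the log2 scale, and 3.59% of the probe sets tested had a smaller one. That share covers dim and bright probe sets alike, and those of like signal were not compared separately. Its sign turned in quantile normalized values, where the difference was 0.0066, and without the library labelled heterozygous 1, where it was 0.0026. Leaving out homozygous 3 gave 0.022, and the difference was 0.034 without the library labelled heterozygous 1 and heterozygous 3 together.

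Bex3 (1428842_a_at), the p75 receptor adaptor Nade, read 4015.4, 4300.9 and 4197.4 in homozygous 1, 2 and 3. Heterozygous 2 and 3 had 4240.5 and 3713.5, and the library labelled heterozygous 1 had 4343.9. Heterozygous 3 was the lowest sample, and the remaining 5 samples lay close together. The means were 4171 ± 144.5 in homozygous and 4099 ± 338.1 in heterozygous samples (SD, n = 3 each). The log2 difference was 0.03 ± 0.07 (SE), for which limma gave an adjusted p of 0.985, and a 95% interval from 0.909-fold to 1.143-fold. Without heterozygous 3 the difference was -0.041, and it was -0.015 once the medians of the arrays had been made equal.

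**Figure D1:**
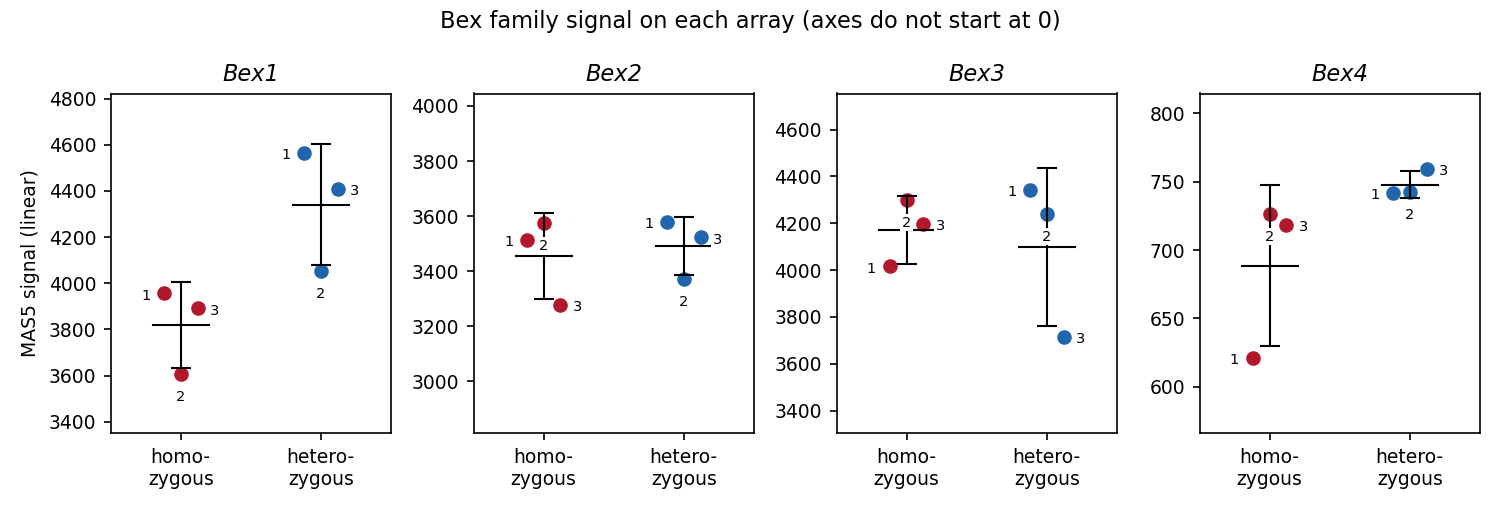
MAS5 signal (linear, axes not starting at 0) of Bex1, Bex2, Bex3 and Bex4 on each array, homozygous left and heterozygous right; points are single arrays with their replicate number, lines are means and bars are SD. Bex1 and Bex4 do not overlap between the groups, with Bex1 at 3608.3 to 3955.8 in homozygous and 4051.7 to 4564 in heterozygous samples, whereas Bex2 and Bex3 overlap.

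The median of the 4 log2 differences was -0.066, with 3 of 4 lower in homozygous samples. Over the 11426 genes tested the median was -0.00041 with 50.2% lower. Pearson's r over the 6 arrays was 0.343 for Bex1 with Bex4 and -0.0806 for Bex2 with Bex3, and these values describe arrays that differ in group as well. Bex1 and Bex3 had an r of -0.301. Whether each probe set reads 1 paralogue alone was not tested.

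Olfactory marker protein itself is read by a pair of probe sets that disagree. Probe set 1422199_at read 5.7, 8.8 and 31.3 in homozygous 1, 2 and 3, against 4663.8 and 9143 in heterozygous 2 and 3 and 26.3 in the library labelled heterozygous 1. The library labelled heterozygous 1 thus lay with the homozygous samples at this probe set, and whether it reads sequence that the knock-in removed is not known here. Probe set 1422200_at averaged 8280 ± 443.1 in homozygous and 8332 ± 370.6 in heterozygous samples (SD, n = 3 each). The log2 differences were -4.74 at 1422199_at, with an adjusted p of 0.859 in limma, and -0.0093 at 1422200_at. For Bex1, the library labelled heterozygous 1 had the highest signal of all 6 samples. Without that library the log2 difference of Bex1 was -0.15, that of Bex2 was 0.0026, that of Bex3 was 0.071 and that of Bex4 was -0.12.

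The nearest relatives of the family are Bex6 and the Tceal genes, small adaptor-like genes of which Tceal5, Tceal7, Tceal8 and Tceal9 lie between Bex2 and Bex3. Of 8 such relatives 5 had a probe set that names 1 gene and 3 passed the filter, of which 0 passed the test. Tceal1 averaged 546.4 ± 31.95 in homozygous and 588.1 ± 30.77 in heterozygous samples (SD, n = 3 each), a log2 difference of -0.10 with an adjusted p of 0.919 in limma. Tceal8, the neighbour of Bex4, averaged 2177 ± 113.4 in homozygous and 2175 ± 101.5 in heterozygous samples, a log2 difference of 0.0014. Tceal9, the neighbour of Bex3, averaged 9896 ± 460.6 in homozygous and 9838 ± 663.8 in heterozygous samples, a log2 difference of 0.0095. Bex6, which RefSeq does not place on the X chromosome, read 1 to 10.1 in homozygous and 2.3 to 28.1 in heterozygous samples. Tceal7 read 4 to 22.4 in homozygous and 4.6 to 17.3 in heterozygous samples, and neither gene passed the filter. The 3 measured Tceal genes overlapped between the groups.

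Partners of Bex proteins and of the p75 pathway were compared as a list of 22 genes, of which 9 passed the filter and 0 passed the test. Homozygous samples were higher at 5 of the 9 and lower at 4, with a median log2 difference of 0.094 beside -0.00041 over all genes tested. The p75 receptor gene Ngfr did not pass the filter: its brightest probe set, 1454903_at, read 181.8, 90.8 and 119.7 in homozygous 1, 2 and 3. Heterozygous 2 and 3 had 55 and 86.2, and the library labelled heterozygous 1 had 117.3. Sort1, which encodes the co-receptor sortilin, averaged 1676 ± 104.8 in homozygous and 1494 ± 47.57 in heterozygous samples (SD, n = 3 each). Its log2 difference was 0.16 with an adjusted p of 0.888 in limma, with no overlap at this probe set and overlap at both others. Maged1, an adaptor that binds p75, averaged 3133 ± 83.23 in homozygous and 3155 ± 109.1 in heterozygous samples, a log2 difference of -0.0098.

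Ywhae, the 14-3-3 protein that binds Bex3, and Lmo2 had fitted differences of opposite sign, and neither passed the test. At its brightest probe set, 1438839_a_at, Ywhae read 11476.5 to 11922.1 in homozygous and 12164.8 to 12566.6 in heterozygous samples. Its log2 difference was -0.066 with an adjusted p of 0.911 in limma, and its 4 probe sets were all lower in homozygous samples, between -0.15 and -0.066. Lmo2 averaged 1145 ± 46.7 in homozygous and 1034 ± 137.4 in heterozygous samples (SD, n = 3 each), a log2 difference of 0.15 with an adjusted p of 0.909 in limma. Its groups overlapped, and heterozygous 3 read lowest, at 875.6. The library labelled heterozygous 1 and heterozygous 2 read 1106.5 and 1120, against 1126.2, 1111.3 and 1198.6 in homozygous 1, 2 and 3. A probe set of Irak1, a kinase that acts downstream of p75, was singled out after its values were seen. Irak1 probe set 1448668_a_at read 410.5, 496.7 and 479.2 in homozygous 1, 2 and 3, against 286.5 and 271.8 in heterozygous 2 and 3 and 288 in the library labelled heterozygous 1. This probe set differed by 0.64 on the log2 scale, with an adjusted p of 0.474 in limma, the lowest of all probe sets tested. The other 3 probe sets of Irak1 differed by 0.10, -0.27 and 0.03; the 4 did not share a direction.

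**Figure D2:**
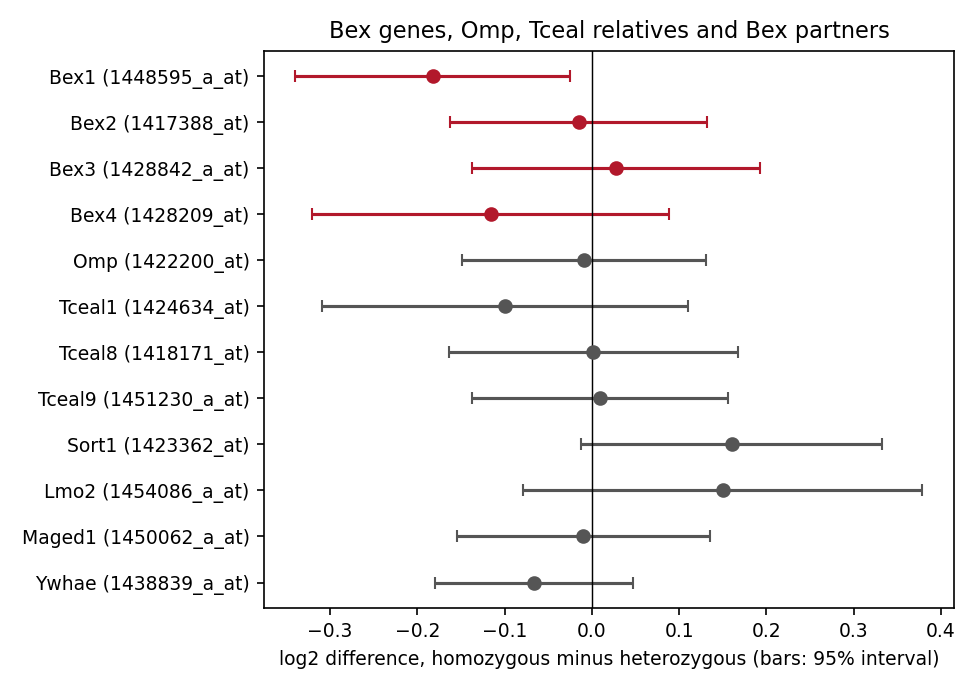
Log2 differences, homozygous minus heterozygous, with 95% intervals from limma for the Bex genes (red) and for Omp, Tceal relatives and Bex partners (grey) at the brightest probe set of each gene. Bex1 lies at -0.18 and its interval ends short of 0, while the intervals of Bex2, Bex3 and Bex4 span 0.

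The neuron content of the samples was then set beside the Bex signals. In tissue RNA, fewer cells of a type and less RNA per cell cannot be told apart. Mature olfactory neuron markers (14 of 18 with a probe set) had summed signals of 101500 to 105900 in homozygous and 88460 to 112200 in heterozygous samples. The heterozygous samples held both extremes, 112200 in the library labelled heterozygous 1 and 88460 in heterozygous 3. Among them Gnal, the olfactory G protein subunit, differed by 0.18 and Stoml3, a ciliary membrane protein, by 0.10, whereas the calcium-binding protein gene S100a5 differed by -0.13. Of 13 mature markers tested 7 were higher and 6 lower, and 0 passed. Set against the mean of these markers in each sample, Bex1 differed by -0.26 on the log2 scale, lower in homozygous samples with no overlap, and Bex2, Bex3 and Bex4 overlapped. Heterozygous 3, the sample of lowest mature markers, stood highest in this measure, and without it, a comparison added after the data were seen, the difference was -0.16. Subtracting the marker mean moved every gene by the same amount within a sample. The share of all genes without overlap on that scale was not computed. With the mature marker mean as a covariate the fitted difference of Bex1 was -0.19.

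Immature neuron markers (12 of 12 with a probe set) had summed signals of 68310 to 69150 in homozygous and 69630 to 72600 in heterozygous samples, without overlap. Homozygous samples were lower at 10 of the 12 and higher at 2, with a median log2 difference of -0.083, and 0 passed the test. Over all genes tested 50.2% were lower, with a median of -0.00041. Taken singly, 4 of the 12 were lower without overlap, as were 630 of the 11426 genes tested. How often the sum of such a list fails to overlap was not tested. Tubb3, the neuronal beta-tubulin, differed by -0.14, Marcksl1, a cytoskeletal regulator, by -0.14 and Stmn2, which regulates microtubules in growing axons, by -0.11. The microtubule regulator Stmn1 differed by 0.05 at its brightest probe set. At its other probe set, 1448113_at, it differed by -0.36, lower in homozygous samples with no overlap. Dimmer probe sets of Marcksl1 differed by -0.14, 0.27 and 0.48, so neither gene had a shared direction across its probe sets. Set against the mean of the immature markers in each sample, Bex1 differed by -0.11 on the log2 scale and the groups overlapped. No fit held the mean of the immature markers as a covariate.

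Neuronal progenitor markers (9 of 10) had summed signals of 26820 to 28310 in homozygous and 27350 to 29660 in heterozygous samples. Of 8 tested 4 were higher and 4 lower, and 0 passed. Insm1 and Nhlh1, transcription factors of neuronal precursors, differed by -0.19 each. The proliferation marker Mki67 differed by 0.19, Ezh2 by 0.098 and Top2a by 0.075. Sox11 differed by 0.01 at its brightest probe set, and its other probe sets ranged from -0.20 to 0.075. Sustentacular cell markers, of the supporting cells, summed to 75810 to 79980 in homozygous and 73590 to 79030 in heterozygous samples (8 of 10). Of 8 tested 3 were higher and 5 lower, and 0 passed. Among them Cbr2 differed by 0.03, Cyp2g1 by -0.02, Sult1c1 by 0.12 and Ermn by -0.08. Basal cell markers (6 of 6) summed to 2608 to 2784 in homozygous and 2459 to 2637 in heterozygous samples. Among 4 tested 2 were higher and 2 lower, with Cav1 at 0.30, Krt5 at 0.05 and Trp63 at -0.14. Dimmer tested probe sets of Trp63 differed by -0.11 and 0.28. These 3 lists overlapped between the groups.

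Single samples stood apart in the summed signals of other marker lists. Brain and olfactory bulb neuron markers (13 of 13) summed to 8359 to 8710 in homozygous and 8470 to 11360 in heterozygous samples, with 11360 in heterozygous 3. Tbr1, Tbx21, Slc17a7 and Th of this list stayed under 100 on every array. Bex genes are also expressed in brain neurons, and heterozygous 3 was the sample of highest Bex4 and of lowest Bex3. Snap25 differed by -0.06, Syt1 by -0.07 and Camk2a by -0.38. Eomes, a factor of olfactory bulb projection neurons, differed by 0.64 at its brightest probe set. Unlike the sum of the list, its signal there was lowest in heterozygous 3, at 205.2. Its other probe set, 1426001_at, differed by 0.12 and the groups overlapped. Without heterozygous 3 the log2 difference of Bex1 was -0.17 and that of Bex4 -0.11. Ensheathing glia and Schwann cell markers (7 of 10) summed to 10070 to 10590 in homozygous and 9870 to 19830 in heterozygous samples, with 19830 in the library labelled heterozygous 1. Mbp, a myelin protein gene, read 655.2 to 928.1 in homozygous samples, 739.7 and 1037.9 in heterozygous 2 and 3 and 7268.5 in the library labelled heterozygous 1. Pmp22, another myelin gene, read 1061.9 to 1205.6 in homozygous samples, 976.7 and 850.8 in heterozygous 2 and 3 and 4898.6 in the library labelled heterozygous 1, so both log2 differences (-1.19 and -0.51) came with that library. Mag, under the filter, was also highest in that library, at 133.4. The rise was not shared by the whole list. In the same library Fabp7 (6290.3) and Npy (368.5) were at their lowest of the 6 arrays. Sox10 read 444.6 there at 1451689_a_at, within the range of the homozygous samples, and S100b read 425.7 at 1434342_at, against 418.2 in homozygous 3. Between the groups Fabp7 differed by 0.09. Of 6 glial markers tested 2 were higher and 4 lower, and of 6 brain neuron markers tested 1 was higher and 5 lower, and 0 passed.

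**Figure D3:**
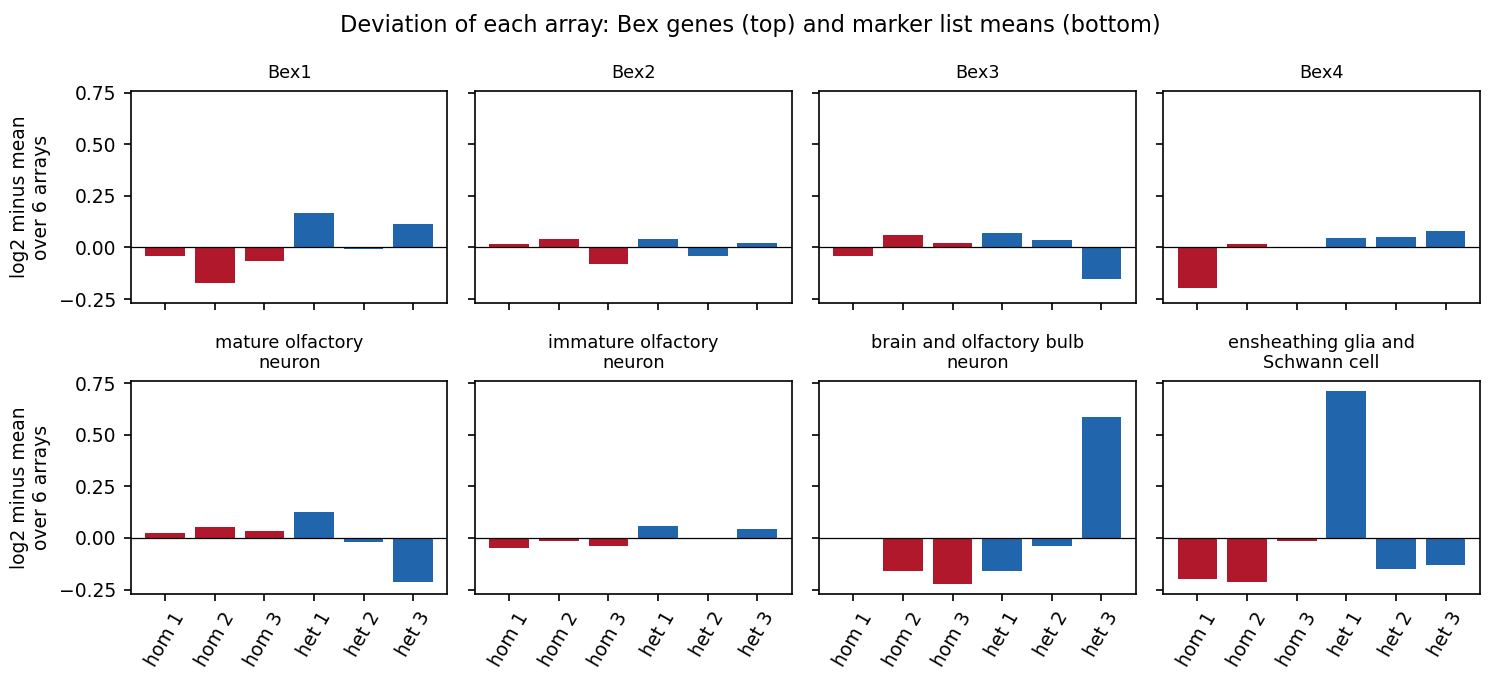
Deviation of each array from the mean over 6 arrays on the log2 scale, homozygous arrays in red and left, heterozygous arrays in blue, for the Bex genes (top) and for the means of 4 marker lists (bottom). Bex1 lies below its mean in homozygous 1, 2 and 3 and above it in the library labelled heterozygous 1 and in heterozygous 3; heterozygous 3 stands apart in brain markers and the library labelled heterozygous 1 in glial markers.

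The Bex genes are X-linked, and the samples differed in sex-linked transcripts. Xist, the RNA that coats the inactive X chromosome, read 112, 5727.1 and 10210.3 in homozygous 1, 2 and 3 at probe set 1436936_s_at. Heterozygous 2 and 3 had 9957.2 and 8164.1, and the library labelled heterozygous 1 had 7041.2. The Y-linked gene Eif2s3y read 1484.7, 1059.7 and 8 in homozygous 1, 2 and 3, against 32.8 and 532.6 in heterozygous 2 and 3 and 435.1 in the library labelled heterozygous 1. Homozygous 1 and 3 lay at the extremes of both genes, and homozygous 2, the library labelled heterozygous 1 and heterozygous 3 read high at both. With the Eif2s3y signal as a covariate the log2 difference was -0.19 for Bex1 and -0.11 for Bex4. The ratio of 3-prime to 5-prime signal, a sign of RNA quality, was 0.716 to 0.755 for Gapdh in homozygous and 0.705 to 0.730 in heterozygous samples. The ratio for beta-actin was 1.278 to 1.312 in homozygous and 1.277 to 1.320 in heterozygous samples.

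Genes whose signal followed each Bex gene most closely across the 6 arrays were named by Pearson's r among 11425 other genes tested, as a description. With so few arrays and so many genes, values of r this high can arise by chance. How many genes would exceed an r of 0.9 by chance was not computed, so no shared regulation is read from these names. The closest to Bex1 were Mon1a, a vesicle trafficking gene (r of 0.991), the autophagy gene Atg14 (0.988) and the receptor gene Gpr37l1 (0.988), and 81 genes had an r above 0.9. The closest to Bex2 were Ctnnal1 (0.993), Bend5 (0.988) and Cpxm1 (0.984), with 55 genes above 0.9. The closest to Bex3 were Acad11 (0.992), Cfap298 (0.987) and Stmnd1 (0.985), with 212 genes above 0.9. The closest to Bex4 were Shox2 (0.983), Plec (0.98) and Fbxo6 (0.979), with 70 genes above 0.9. The 3 genes named for each member were different genes for all 4 members.

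Other settings of the analysis were then compared. Of 21 settings 6 changed only the error, the filter or the threshold and left each fitted difference as it was, and 15 could move it. Bex1 was lower in homozygous samples in 15 of these 15, between -0.23 and -0.086, and Bex4 in 15 of 15, between -0.16 and -0.048. Because neither gene overlapped between the groups, leaving out arrays or changing the offset could not have turned its sign. Only the other scalings and the covariates could have done so. Apart from the change of threshold, the unadjusted p of Bex1 was under 0.05 in 16 of 20 settings. It was 0.0698 in eBayes with no intensity trend, 0.0869 without the library labelled heterozygous 1, 0.119 without homozygous 2, and 0.316 with the library labelled heterozygous 1 and heterozygous 3 both left out. Bex2 turned its sign in 4 of the 15 settings and Bex3 in 5. In none of the 21 settings did a Bex gene pass an adjusted p of 0.05 in limma, and the lowest adjusted p was 0.52, for Bex1 without heterozygous 3.

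**Figure D4:**
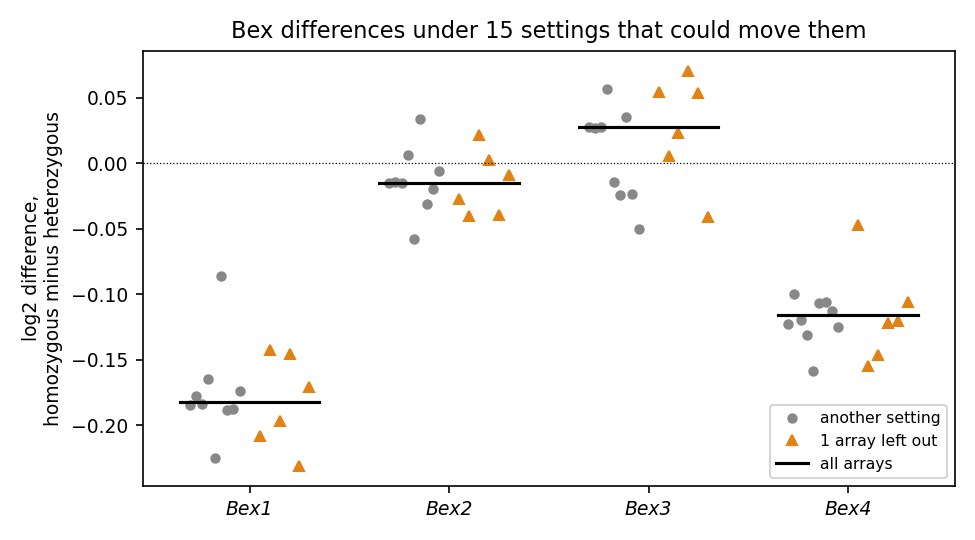
Log2 difference of each Bex gene, homozygous minus heterozygous, with all arrays (black line), under other settings (grey circles) and with 1 array left out (orange triangles). Only the 15 settings that could move a difference are plotted. Bex1 and Bex4 lie below 0 in these, and Bex2 and Bex3 lie on both sides of 0. Without overlap between the groups, Bex1 and Bex4 could cross 0 only under another scaling or a covariate.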

How the data were processed

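The authors deposited 1 intensity per probe set and array, linear in scale and made with MAS5 per the submitters' processing notes, whose version is not given. Each array had a 2% trimmed mean of 500, so no further scaling was applied, and array medians lay between 147.9 and 163.7. Precision is limited by having 3 arrays a group. Of 45101 probe sets (64 controls), the platform annotation names 1 gene for 34958, several for 932 and none for 9211, and probe sets with several were not named. An offset of 38.8 (pooled 25th percentile) was added before taking log2, which shrinks the differences of dim probe sets. The 22514 probe sets (11426 genes) with a mean log2 signal no lower than the median of all probe sets were fitted with limma 3.58.1 (R 4.3.3, lmFit and eBayes with trend, Benjamini-Hochberg adjustment at 0.05), and only rows of interest are printed. A gene was represented by its brightest probe set. The fit was also run on simulated data with independent errors and added changes larger than the Bex differences. That run therefore does not bear on differences of their size. No 2 arrays shared more than 101 values.

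The members and gene lists were chosen with earlier results of these data known. Named were every probe set of the members, Omp, all measured relatives, up to 4 genes per list (2 by lowest p, 2 by mean signal), Xist, Eif2s3y, and the 3 genes most like each member. Alternatives were other offsets, scalings, filters, variance models, covariates and thresholds, a replicate block, arrays left out and gene values averaged over probe sets. Promoter sequences are RefSeq's, of GRCm38.p6.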

Additional observations from a re-analysis of the deposited data

How the results depend on the processing

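No Bex gene passed under any of the alternatives. For Bex1 and Bex4 the direction held in the 15 that could move a fitted difference, and the other 6 leave it as it is by construction. The groups of Bex1 and Bex4 did not overlap, so leaving out arrays or changing the offset could not turn their signs. Their direction was open to change only under the other scalings and the covariates. With 1 array left out, Bex1 ranged from -0.23 to -0.14 and Bex4 from -0.15 to -0.048, Bex2 from -0.040 to 0.022 and Bex3 from -0.041 to 0.071. Bex2 reversed to 0.0066 after quantile normalization and to 0.034 without the library labelled heterozygous 1 and heterozygous 3 together. Bex3 reversed to -0.015 with arrays shifted to a common median, to -0.024 without the library labelled heterozygous 1 and heterozygous 3 together, to -0.024 with the mature neuron marker mean as covariate and to -0.050 with the brain neuron marker mean; the cause was not tested. Over all probe sets tested, 0 passed, against 1 with the pooled median as offset, 30 without the library labelled heterozygous 1 and heterozygous 3 together, and 0 to 25 with 1 array left out, 25 of them without the library labelled heterozygous 1. The replicate block gave 0 calls and left Bex1 at -0.18; same-numbered samples had correlations of deviations of 0.016, -0.12 and -0.047, so the numbers were not taken as pairs. Arrays shifted to a common median moved the median difference of all probe sets tested to -0.032, against 0.010 as deposited, and the probe sets at an unadjusted p under 0.05 to 361 higher and 879 lower, against 751 higher and 540 lower as deposited. The intervals given bound what 3 arrays a group could resolve.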
